A study of Mus musculus with 13 samples.

Results

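The transcription factor p53 is stabilized when DNA is broken and switches on genes that halt the cell cycle, trigger apoptosis, repair DNA and adjust metabolism. One of its targets, Mdm2, encodes the ubiquitin ligase that degrades p53, so that the response limits itself. In the thymus, thymocytes are known to die through p53 after irradiation, whereas the stromal cells that support them are more radioresistant. The levels of 34 p53 target genes were followed here in thymic stromal cells after sublethal total body irradiation (TBI). The genes came from a list of known targets, chosen with earlier results of these data known. They were matched by mouse symbol to the count table, where all 34 of 53379 genes were found. All 34 were also among the 19984 genes that passed the filter on low counts. They were sorted by their best known role into cell cycle arrest and feedback (8 genes), apoptosis (13), DNA repair and nucleotide supply (6), and stress, metabolism and signalling (7).

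The libraries were bulk RNA-seq of CD45− cells from the thymus of wild type C57BL/6 mice aged 2 months. At steady state 4 libraries were made, and 3 were made on each of days 1, 4 and 7 following TBI. Mice at steady state are untreated by their labels and PBS controls of days 1, 4 or 7 by the columns of the count table, and each is named here as its column names it. The methods of the study call the bulk libraries biological replicates, a term they define elsewhere as individual mice, and the labels do not say whether mice were pooled, so the p-values measure only the spread between these libraries. The 3 comparisons with steady state share its 4 libraries.

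Total counts ran from 15721866 to 52056896 per library, with a median of 44078906. CD45− cells should hold no leukocytes, but RNA of other cells was present. The summed CPM (counts scaled to the TMM-normalized library size) of 14 thymocyte markers ran from 298 to 950 at steady state, from 138 to 175 at day 1 and from 33.1 to 54.2 at day 4. At day 7 the sum was 261 in replicate 1, 6042 in replicate 2 and 2599 in replicate 3. The sums of 7 erythroid markers ran from 19617 to 33954 at steady state, from 3870 to 16802 at day 1, from 10.3 to 13.8 at day 4 and from 2595 to 7457 at day 7. The stromal markers were present in every library, with sums of 557 to 3400 for 7 thymic epithelial, 11989 to 82491 for 6 fibroblast and 634 to 1123 for 6 endothelial genes. None of the thymocyte markers was at 0 in any library. The sums of 6 myeloid markers (33.0 to 144 CPM) and 4 B cell markers (2.11 to 15.2 CPM) were low, though at day 4 the myeloid sums of 52.5 to 76.2 CPM were above the thymocyte and erythroid sums. In bulk samples, fewer cells of a type and less RNA per cell cannot be told apart. Day 1 replicate 1, day 4 replicates 2 and 3 and, less so, day 7 replicate 2 also stood apart in the levels of GC-rich transcripts, and the p53 targets this touches are described after the roles.

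p53 binds DNA as a tetramer at a response element of 20 bases, made of a pair of half-sites of 10 bases. The 300-base RefSeq promoters of mouse GRCm38.p6, from 250 bases before to 50 bases after each start, were searched for a p53 consensus element. A match had adjacent half-sites, in each of which C and G enclose a pair of A or T bases, with at most 3 mismatches in the 20 bases. This limit was chosen with the matches in view. The consensus reads the same on both strands, so the given strand was searched. Of 32851 promoters, 188 (0.572%) held a match. Of the 34 targets, 24 had a promoter in the table, 36 promoters in all, and 3 targets had a match. They are shown with the matched bases in capitals, because the first and last of them encode transcripts that rose after TBI.

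Cdkn1a, chr17:29090838-29090978, plus strand: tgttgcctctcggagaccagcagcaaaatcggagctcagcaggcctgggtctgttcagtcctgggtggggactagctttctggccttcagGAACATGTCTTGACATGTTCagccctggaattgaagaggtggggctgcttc
Bbc3, chr7:16309486-16309505, plus strand: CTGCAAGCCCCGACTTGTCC
Aen, chr7:78895937-78895956, plus strand: GGGCTTGTCCGGGCAAGGAG

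The Cdkn1a match had 1 mismatch and lay 51 to 32 bases before a start site of the gene. The matches at Bbc3 and Aen had 3 mismatches each. That of Bbc3 lay 97 to 78 bases before a start site, and that of Aen lay within an exon. A match in letters is a description of the window and says nothing of binding in these cells.

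At day 1 after TBI, 6 of the 34 targets were higher than at steady state and none was lower, while 1.68% of all genes tested were called higher and 0.671% lower. At an unadjusted p under 0.05, 15 targets were higher and 3 lower, while 17.2% of all genes passed. DESeq2 called 10 targets higher and 2 lower, with 4.58% of all genes called higher and 2.92% lower. A gene was called at a Benjamini-Hochberg adjusted p of 0.05 or less in the quasi-likelihood F-test of edgeR, and every adjusted p below comes from this test unless another is named. The 6 were Cdkn1a and Ccng1 among the arrest genes, Bax, Aen and Eda2r among the apoptosis genes, and Sesn2 among the stress genes. Their folds ran from 2.47 (Sesn2) to 3.73 (Eda2r). The median log2 fold change of the 34 targets at day 1 was 0.50, against -0.10 over all genes tested. By role it was 0.69 for arrest and feedback, 0.52 for apoptosis, 0.79 for stress, metabolism and signalling, and -0.34 for DNA repair and nucleotide supply. In 12 targets every day 1 library lay above every steady-state library, which held for 7.25% of all genes tested. In 4 targets, Ddb2, Xpc, Rrm2b and Sesn1, every day 1 library lay below, which held for 8.56% of all genes.

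The comparison of day 1 with steady state also differed in other RNA. The thymocyte and erythroid sums given above did not overlap between these groups and were lower at day 1, and the fibroblast sums overlapped. With the thymocyte score, the mean log2(CPM + 0.5) of the markers, as a covariate, 374 of all genes were called higher at day 1 and 122 lower. Among the targets, 5 were called higher. These were Cdkn1a, Bax, Aen, Eda2r and Pidd1, while Ccng1 and Sesn2 were no longer called. Their log2 fold changes with the covariate were 0.96 (adjusted p = 0.0967) and 1.18 (adjusted p = 0.0712), against 1.31 for each without it. The score itself ran from 4.07 to 5.61 at steady state, 2.93 to 3.28 at day 1, 0.99 to 1.59 at day 4 and 3.93 to 8.34 at day 7. Only day 7 and steady state overlapped in it. In the other comparisons the fit with this covariate cannot tell the score from the day. The part of the erythroid RNA was not tested.

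**Figure D1:**
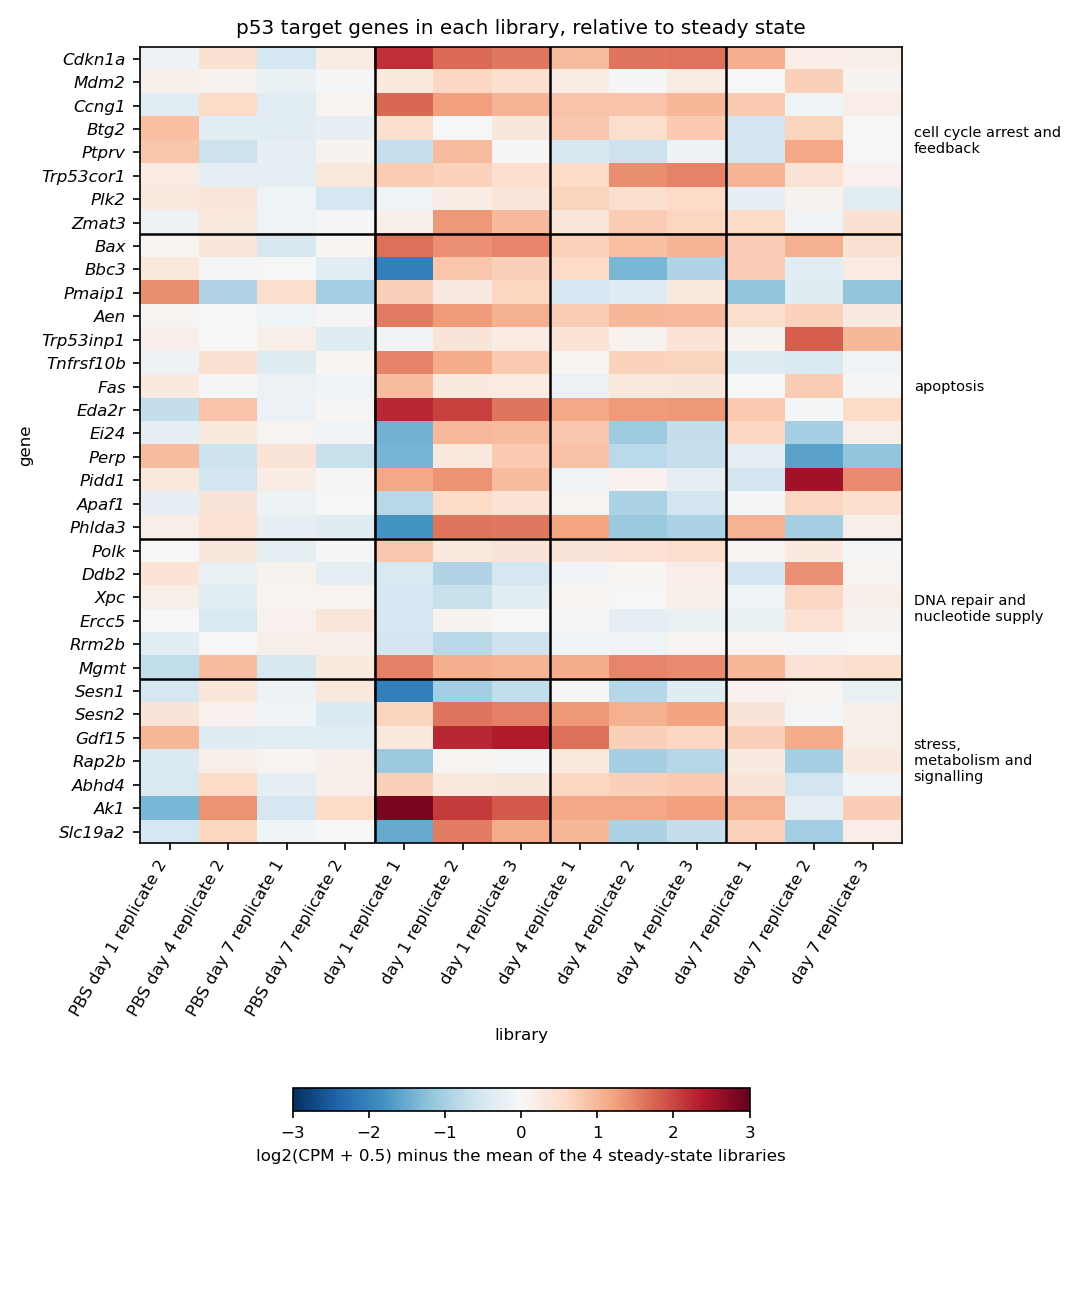
Heat map of the 34 p53 target genes (rows, by role) in the 13 libraries (columns), as log2(CPM + 0.5) minus the mean of the 4 steady-state libraries, where red is higher and blue is lower. Cdkn1a, Ccng1, Bax, Aen and Eda2r are red in all 3 day 1 libraries, and Phlda3, Slc19a2, Ei24 and Bbc3 are blue in day 1 replicate 1 and day 4 replicates 2 and 3 but red in the other libraries of those days.

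Among the genes of cell cycle arrest and feedback, 2 of 8 rose at day 1, while 1.68% of all genes were called higher. Cdkn1a (ENSMUSG00000023067, chromosome 17, 29090979 to 29100722) encodes p21, the inhibitor of cyclin-dependent kinases through which p53 arrests cells. Its level was 169, 258, 129 and 217 CPM in the steady-state libraries, 855, 609 and 559 at day 1, 363, 574 and 582 at day 4, and 397, 216 and 209 at day 7. All day 1 and day 4 libraries lay above all steady-state libraries, and the day 7 libraries overlapped with them. The mean rose 3.49-fold, from 193 ± 56.1 (SD, n = 4) to 674 ± 158 CPM (SD, n = 3), which is 1.80 ± 0.45 (SE) in log2 units (adjusted p = 0.00694). In the same units its difference from steady state was 1.39 ± 0.41 by day 4 (adjusted p = 0.0914) and 0.50 ± 0.33 by day 7 (adjusted p = 0.566). From day 1 to day 7 Cdkn1a fell by 1.30 ± 0.42 on the log2 scale, with adjusted p = 0.0342.

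Ccng1 (ENSMUSG00000020326, chromosome 11, 40748552 to 40755311) encodes cyclin G1, a target that feeds back on p53 through Mdm2. It stood at 242, 459, 246 and 327 CPM at steady state and at 1023, 723 and 623 CPM at day 1. The groups did not overlap, and the log2 fold change was 1.31 ± 0.38 with adjusted p = 0.0298. This call was lost in 7 of 17 alternatives, among them those without day 1 replicate 1 or 2, PBS day 1 replicate 2 or PBS day 7 replicate 1 or 2, with log2 fold changes of 1.08 to 1.37 without these libraries. At day 4 its libraries stood at 560, 561 and 617 CPM, again all above steady state (log2 fold change 0.86 ± 0.34, adjusted p = 0.256). At day 7 they stood at 530, 282 and 352 CPM and overlapped with steady state.

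Mdm2 had a narrow range. It measured 72.1 to 92.7 CPM at steady state and 102, 127 and 116 at day 1, without overlap, but its log2 fold change of 0.47 ± 0.23 did not pass the test (adjusted p = 0.264). Zmat3, an RNA-binding protein with tumour suppressor activity, measured 9.19 to 12.8 CPM at steady state and 11.4, 26.1 and 20.4 at day 1 (adjusted p = 0.128). Trp53cor1, the long noncoding RNA also known as lincRNA-p21, is the neighbour of Cdkn1a on chromosome 17 (29057474 to 29078961) and is read from the other strand. It was scarce, with 18 to 147 counts per library, and had its highest mean at day 4, when it measured 1.23, 2.53 and 2.72 CPM against 0.450 to 0.920 CPM at steady state. Its log2 fold change at day 4 was 1.71 ± 0.54, with adjusted p = 0.135.

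The other arrest genes had no library pattern of this kind at day 1. Btg2, an antiproliferative gene, overlapped between day 1 and steady state, where PBS day 1 replicate 2 had 406 CPM and the other 3 libraries 170 to 182. Its day 4 libraries, 382, 313 and 370 CPM, all lay above its day 1 libraries of 303, 215 and 275. The kinase gene Plk2 had a similar order, with 122, 106 and 115 CPM at day 4 above both steady state (52.5 to 98.7) and day 1 (69.0 to 97.9). Neither passed the test of edgeR at day 4 against steady state (adjusted p = 0.456 for Btg2 and 0.358 for Plk2). Ptprv, a phosphatase gene, stayed between 1.10 and 5.29 CPM in all 13 libraries, and its groups overlapped in every comparison.

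**Figure D2:**
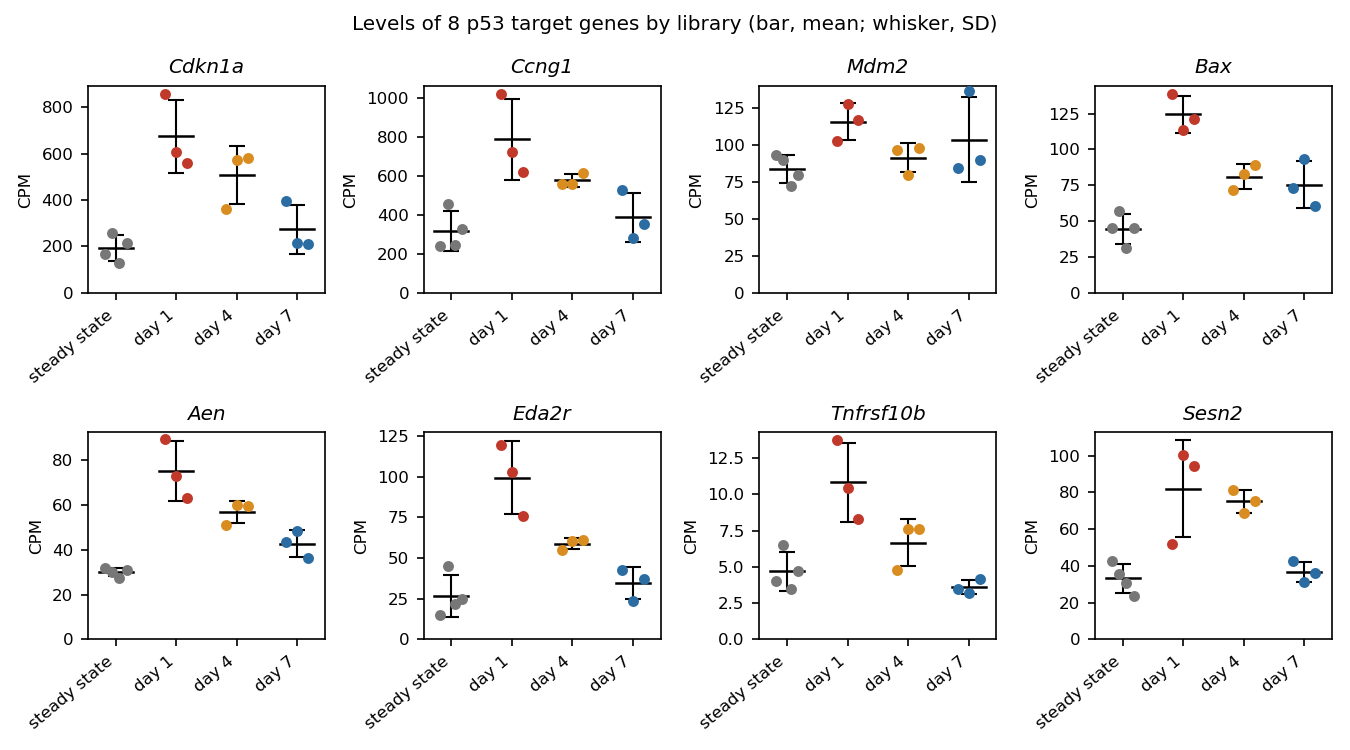
Levels in CPM (linear axes from 0) of 8 p53 target genes, with a point for each library, a bar for the group mean and a whisker for the SD (n = 4 at steady state and n = 3 at each day). Day 1 lies above steady state without overlap in all 8 genes, while at day 7 only the libraries of Bax and Aen still all lie above it.

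Among the apoptosis genes, 3 of 13 rose at day 1, while 1.68% of all genes were called higher. Bax (ENSMUSG00000003873, chromosome 7, 45461697 to 45466898) encodes the effector that permeabilizes the outer mitochondrial membrane. It measured 45.4, 57.0, 31.5 and 45.3 CPM at steady state, 139, 114 and 121 at day 1, 71.7, 82.8 and 88.9 at day 4, and 72.98, 93.1 and 60.5 at day 7. The lowest library after TBI, at 60.5 CPM, lay above the highest at steady state, 57.0 CPM. Against steady state, its log2 fold change was 1.47 ± 0.34 at day 1 (adjusted p = 0.00266), 0.86 ± 0.28 at day 4 (adjusted p = 0.146) and 0.75 ± 0.27 at day 7 (adjusted p = 0.141). An overlapping gene model, Gm45808, covers 12.2% of the exonic bases of Bax.

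Aen (ENSMUSG00000030609, chromosome 7, 78895854 to 78911209) encodes a p53-induced nuclease that acts in apoptosis. It had the smallest SD at steady state of the called genes, 1.77 CPM, with 31.7, 30.2, 27.5 and 30.7 CPM. It measured 89.2, 72.95 and 62.9 CPM at day 1, 51.0, 60.03 and 59.6 at day 4, and 43.3, 48.5 and 36.5 at day 7. The days followed each other downwards without overlap, and the day 7 libraries still all lay above steady state. Its log2 fold change was 1.32 ± 0.29 at day 1 (adjusted p = 0.00142), 0.92 ± 0.25 at day 4 (adjusted p = 0.0600) and 0.51 ± 0.21 at day 7 (adjusted p = 0.215). Aen fell by 0.81 ± 0.25 on the log2 scale from day 1 to day 7, with adjusted p = 0.0261.

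Eda2r (ENSMUSG00000034457, chromosome X, 97333840 to 97377216) encodes a receptor of the tumour necrosis factor receptor family for an isoform of ectodysplasin. It had the largest fold of the 6 called genes, from 14.8, 44.9, 21.7 and 25.1 CPM at steady state to 120, 103 and 75.6 at day 1. The log2 fold change was 1.90 ± 0.48, with adjusted p = 0.00745. It missed the threshold in 1 alternative, the fit of only these 2 groups. At day 4 it measured 55.2, 60.3 and 61.3 CPM, between day 1 and steady state and overlapping with neither. At day 7 it measured 42.9, 23.8 and 37.4 CPM, within the range of steady state, and the log2 difference from day 1 was -1.52 ± 0.46 (adjusted p = 0.0237).

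The death receptor gene Tnfrsf10b narrowly missed the threshold at day 1, with 13.7, 10.4 and 8.29 CPM against 3.46 to 6.501 CPM at steady state (log2 fold change 1.21 ± 0.37, adjusted p = 0.0527). It had the largest fall from day 1 to day 7 among the 5 called genes, to 3.45, 3.22 and 4.18 CPM, by 1.58 ± 0.44 on the log2 scale with adjusted p = 0.0130. Fas, the other classic death receptor, measured 33.1 to 46.2 CPM at steady state and 71.6, 46.3 and 44.2 CPM at day 1, with overlap (adjusted p = 0.328). Pidd1, the scaffold of the PIDDosome, measured 1.83 to 3.73 CPM at steady state and 7.16, 8.17 and 6.07 at day 1, without overlap (adjusted p = 0.263).

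The BH3-only genes, which encode activators of Bax, did not have this pattern. Pmaip1 (Noxa) measured 52.4, 10.3, 28.7 and 9.54 CPM at steady state, a range that enclosed all of its day 1 libraries (24.1 to 32.6 CPM). Bbc3 (Puma) measured 9.49 to 14.9 CPM at steady state and 2.49, 21.6 and 19.9 at day 1, so that its replicates lay on both sides of steady state. A gap between the day 1 libraries was also seen in Phlda3, an inhibitor of Akt, in Ei24, in Perp, a membrane protein of desmosomes, and in Apaf1, the core of the apoptosome. In each of these, day 1 replicate 1 lay below replicates 2 and 3, and none passed the test against steady state at any day. Trp53inp1, whose product acts with p53 in stress responses, measured 140 to 201 CPM at steady state and 170, 235 and 214 at day 1.

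**Figure D3:**
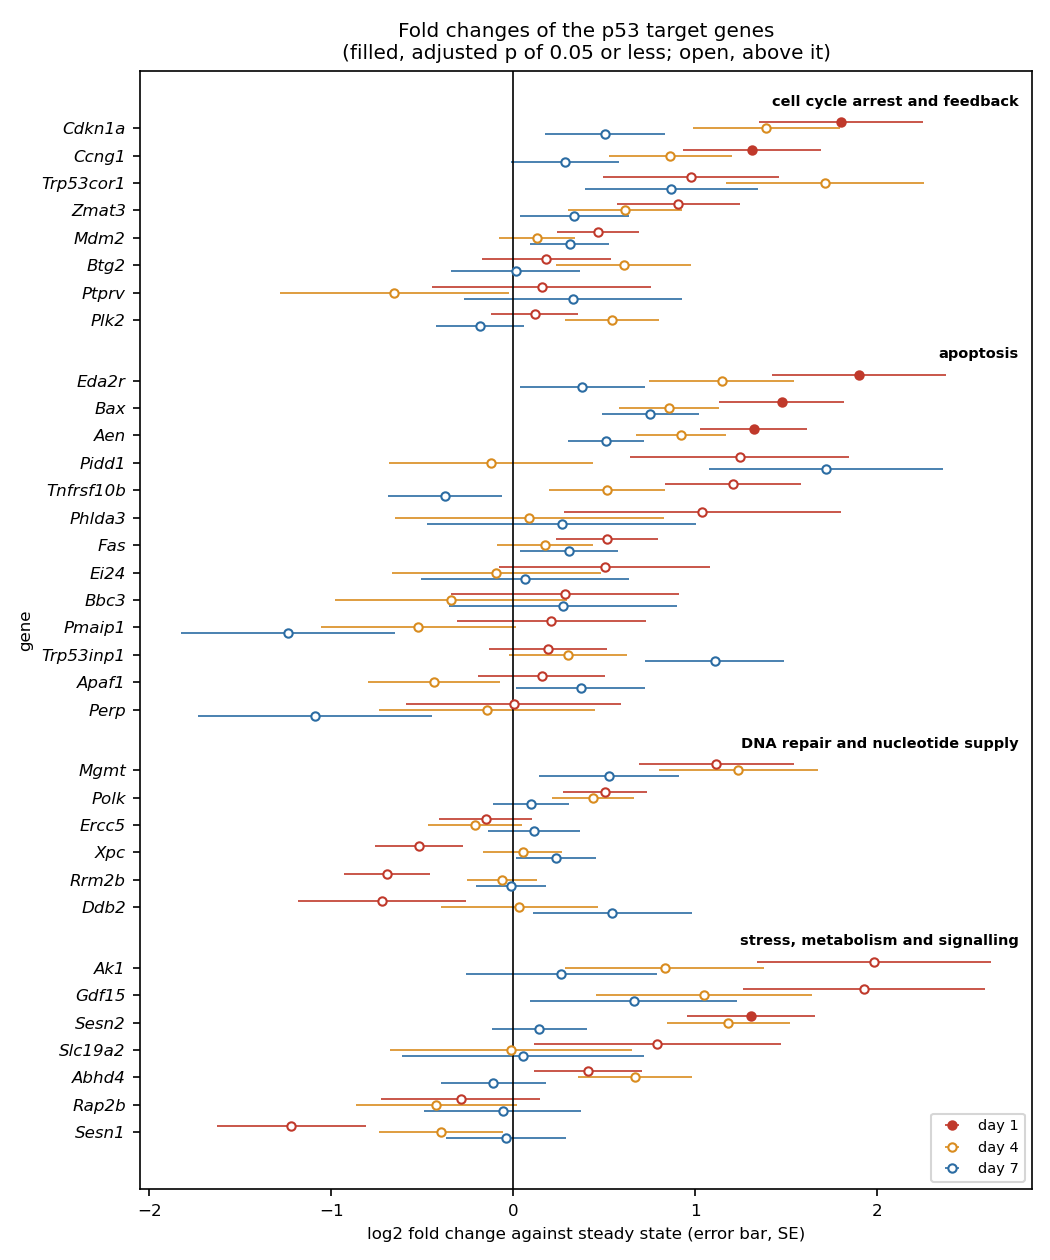
Log2 fold changes of the 34 p53 target genes against steady state at day 1 (red), day 4 (orange) and day 7 (blue), by role and in order of the day 1 value, with error bars of 1 SE. Filled points passed the test at an adjusted p of 0.05 or less, which was so for 6 genes at day 1 and for none at days 4 and 7.

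None of the 6 genes of DNA repair and nucleotide supply was called at day 1, with 2.35% of all genes called. In 3 of them every day 1 library lay below steady state, as in 8.56% of all genes. At an unadjusted p under 0.05 there were 2 higher (Mgmt and Polk) and 2 lower (Xpc and Rrm2b), while 17.2% of all genes passed. Rrm2b, the p53-inducible subunit of ribonucleotide reductase, measured 21.03, 26.3, 29.5 and 30.0 CPM at steady state and 17.99, 14.6 and 17.0 at day 1. Its log2 fold change was -0.69 ± 0.24, with adjusted p = 0.0861, and it was back at 24.0 to 27.9 CPM at day 4 and 25.6 to 27.5 CPM at day 7. DESeq2 called it lower at day 1 (adjusted p = 0.0106), alone of the 6. Xpc, the damage sensor of global nucleotide excision repair, measured 31.9 to 45.3 CPM at steady state and 27.998, 25.1 and 31.6 at day 1, a log2 difference of -0.52 ± 0.24 (adjusted p = 0.241). Ddb2, which recognizes ultraviolet damage, measured 3.83 to 6.36 CPM at steady state and 3.28, 2.28 and 3.16 at day 1 (adjusted p = 0.417). Exons of Acp2 cover 23.8% of the exonic bases of Ddb2, and with the thymocyte score as a covariate its log2 fold change at day 1 was 0.035 instead of -0.72.

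Mgmt and Polk had the opposite order. Mgmt, which removes alkyl groups from guanine, measured 4.93, 16.6, 5.94 and 10.5 CPM at steady state and 25.2, 18.7 and 17.7 at day 1. At day 4 it measured 18.97, 24.3 and 23.7 CPM, also above all of steady state, a log2 difference of 1.24 ± 0.44 (adjusted p = 0.203). Polk, a translesion polymerase, measured 23.8 to 37.0 CPM at steady state, 51.2, 36.1 and 38.1 at day 1, and 38.3, 39.2 and 42.2 at day 4. Ercc5, an endonuclease of nucleotide excision repair, overlapped between all groups, from 19.005 to 37.7 CPM.

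Among the genes of stress, metabolism and signalling, 1 of 7 rose at day 1, while 1.68% of all genes were called higher. Sesn2 (ENSMUSG00000028893, chromosome 4, 132492032 to 132510501) encodes a sestrin, which restrains mTORC1. It measured 42.4, 35.7, 30.6 and 23.9 CPM at steady state, 51.8, 100 and 94.1 at day 1, 81.3, 69.0 and 75.3 at day 4, and 42.5, 31.4 and 36.0 at day 7. Its day 4 libraries lay within the range of day 1, and its day 7 libraries overlapped with steady state. The log2 fold change was 1.31 ± 0.35 at day 1 (adjusted p = 0.0151), 1.18 ± 0.34 at day 4 (adjusted p = 0.0863) and 0.14 ± 0.26 at day 7 (adjusted p = 0.935). From day 1 to day 7 it fell by 1.16 ± 0.35 on the log2 scale (adjusted p = 0.0239). The call at day 1 was lost in 5 of 17 alternatives, among them those without day 1 replicate 2 (1.14), day 1 replicate 3 (1.198) or PBS day 7 replicate 2 (1.18 on the log2 scale).

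Its paralog Sesn1 had lower levels at day 1, with 79.9, 148, 103 and 144 CPM at steady state and 27.3, 57.1 and 68.9 CPM at day 1. The groups did not overlap, and the log2 fold change was -1.22 ± 0.41 with adjusted p = 0.0822. DESeq2 called it lower at day 1 (adjusted p = 0.0173). Sesn1 was at 118, 63.7 and 89.3 CPM at day 4 and at 126, 122 and 99.0 CPM at day 7.

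Ak1, adenylate kinase 1, had the largest log2 fold change of all 34 targets at day 1, 1.98 ± 0.64, but missed the threshold (adjusted p = 0.0675). Its steady-state libraries spread from 27.7 to 184 CPM, and the day 1 libraries measured 516, 313 and 262 CPM. Gdf15, a stress-induced cytokine, measured 3.42, 14.5 and 15.8 CPM at day 1. At steady state PBS day 1 replicate 2 had 5.75 CPM and the other 3 libraries 1.95 to 2.04, and the log2 fold change was 1.93 ± 0.67 (adjusted p = 0.0936). Abhd4, a lipid hydrolase, had its highest levels at day 4, with 326, 341 and 359 CPM against 150 to 313 CPM at steady state. The thiamine transporter gene Slc19a2 measured 18.1 to 41.3 CPM at steady state and 8.91, 76.4 and 56.9 at day 1, the split seen in Bbc3 and Phlda3. Rap2b, a small GTPase, measured 11.4 to 17.6 CPM at steady state and 6.96, 16.5 and 15.3 at day 1. Other gene models cover 58.3% of the exonic bases of Rap2b, so its counts are uncertain.

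Some targets varied at steady state in the direction of the fibroblast sums and others against it. PBS day 4 replicate 2 had the highest fibroblast sum, 82491 CPM, and the highest level among the steady-state libraries of Cdkn1a, Ccng1, Bax, Eda2r, Mgmt and Ak1. PBS day 1 replicate 2 had the lowest fibroblast sum, 11989 CPM, and the lowest level of Ccng1, Eda2r, Mgmt and Ak1. The same library had the highest steady-state level of Aen and Sesn2, also called at day 1, and of Mdm2, Btg2, Pmaip1, Perp and Gdf15, among others. Its thymocyte, erythroid and thymic epithelial sums were 738, 33954 and 2682 CPM, against 298, 19617 and 737 CPM in PBS day 4 replicate 2. At day 1, replicate 1 had the lowest fibroblast sum of its group, 16170 CPM, and the highest Cdkn1a, Ccng1, Bax, Aen, Eda2r, Mgmt and Ak1. These are descriptions over few libraries, and the part of fibroblast RNA in the comparisons was not tested.

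Per kilobase of exon, the called genes spanned a wide range at steady state. Ccng1 and Cdkn1a had mean levels of 90.7 and 87.0 RPKM, Bax had 28.4, Sesn2 had 9.54, Aen had 5.18 and Eda2r had 4.52. At day 1 the order of the first 3 was Cdkn1a at 303, Ccng1 at 225 and Bax at 79.0 RPKM.

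By day 4, no target was called against steady state by edgeR in either direction, with 0.29% of all genes called. At an unadjusted p under 0.05, 10 targets were higher and none lower, while 13% of all genes passed. DESeq2 called 7 targets higher, with 1.41% of all genes called higher and 1.95% lower. These were Sesn2, Bax, Aen, Mgmt, Trp53cor1, Cdkn1a and Eda2r. The median log2 fold change of the targets was 0.24, against -0.13 over all genes. In 12 targets every day 4 library lay above steady state, as did 6.44% of all genes, and in none did every library lie below, as did 8.22% of all genes. The 12 were Zmat3, Sesn2, Bax, Aen, Mgmt, Ccng1, Polk, Plk2, Abhd4, Trp53cor1, Cdkn1a and Eda2r. The thymocyte and erythroid sums given above were also lower at day 4 than at steady state, without overlap. The day 4 log2 fold change, once the thymocyte score entered as a covariate, went from 0.86 to 0.085 for Ccng1, from 1.39 to 0.59 for Cdkn1a, from 1.15 to 0.39 for Eda2r and from 1.24 to 0.45 for Mgmt. It was 0.87 for Bax and 0.98 for Aen, against 0.86 and 0.92 without the covariate. As the score did not overlap between day 4 and steady state, these changes cannot be assigned to thymocyte RNA or to the day.

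Between day 4 and day 1 no target was called by edgeR either, with 1.43% of all genes called, 0.355% as higher and 1.07% as lower. At an unadjusted p under 0.05, 3 targets were higher and 3 lower at day 4, while 13.7% of all genes passed. DESeq2 called 1, Rrm2b, higher, with 1.9% of all genes called higher and 2.85% lower. With the thymocyte score as a covariate edgeR called 1, Ddb2, higher at day 4, with 89 of all genes called higher and 183 lower. In 8 targets, among them Bax, Aen, Eda2r and Tnfrsf10b, every day 4 library lay below every day 1 library, as in 13.7% of all genes. In 5 targets, Btg2, Plk2, Ddb2, Xpc and Rrm2b, every day 4 library lay above, as in 12.6% of all genes.

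By day 7, no target was called against steady state by edgeR, with 0.005% of all genes called. At an unadjusted p under 0.05, 4 targets were higher and 1 lower, while 13.5% of all genes passed. DESeq2 called Trp53inp1, Bax and Pidd1 higher and none lower, with 1.91% of all genes called higher and 3.5% lower. In 2 targets, Bax and Aen, every day 7 library still lay above steady state, as in 2.82% of all genes, and in none did every library lie below, as in 4.67%. Against day 1, 5 targets were lower at day 7 and none higher, with 8.13% of all genes called, 4.45% as lower and 3.68% as higher. These were Cdkn1a, Aen, Tnfrsf10b, Eda2r and Sesn2. Without adjustment, 5 targets were higher and 9 lower at p under 0.05, while 23.9% of all genes passed. DESeq2 called 3 higher and 8 lower, with 6.41% of all genes called higher and 8.32% lower. The edgeR calls depended on single libraries, over all genes as among the targets. Without day 7 replicate 2 no target was called (188 of all genes higher and 339 lower). Without day 1 replicate 1 there was 1 (167 and 305), as without day 1 replicate 2 (215 and 575) or day 7 replicate 3 (342 and 323). Without day 1 replicate 3 there were 3 (254 and 461). Without day 7 replicate 1 there were 9, of which 3 were higher and 6 lower (1315 and 638 of all genes). The thymocyte sums given above rose from day 1 to day 7, without overlap. With the thymocyte score as a covariate 1 target, Pidd1, was called lower, with 326 of all genes called lower and 35 higher. With that covariate the log2 differences of the 5 were -1.43 for Tnfrsf10b, -0.94 for Sesn2, -0.87 for Aen, -0.80 for Eda2r and -0.57 for Cdkn1a. Here too the score did not overlap between the 2 days, so it cannot be told from the day. Between day 7 and day 4 edgeR called no target, with 3.9% of all genes called, 2.77% as higher and 1.13% as lower. At an unadjusted p under 0.05, 3 targets were higher and 5 lower, while 18.7% of all genes passed. DESeq2 called Pidd1 higher and Sesn2, Plk2 and Tnfrsf10b lower, with 5.18% of all genes called higher and 4.43% lower.

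By the day of the highest mean after TBI, 19 targets (55.9%) peaked at day 1, 5 at day 4 and 10 at day 7, while 34.8% of all genes tested peaked at day 1, 24.6% at day 4 and 40.5% at day 7. Of the 13 apoptosis genes 10 peaked at day 1, none at day 4 and 3 at day 7, and of the 8 arrest genes 4 peaked at day 1, 3 at day 4 and 1 at day 7. Of the 6 repair genes 1 peaked at day 1, 1 at day 4 and 4 at day 7, and of the 7 stress genes 4 peaked at day 1, 1 at day 4 and 2 at day 7. With the GC trend of each library removed, the apoptosis genes numbered 8, 1 and 4 and the stress genes 4, 3 and 0, and those of the other roles were as before. The peaks are a description, and many differ from the next day by less than the spread between libraries.

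In some targets with a day 7 peak, the day 7 replicates had the order of the thymocyte sums. Trp53inp1 measured 192, 619 and 354 CPM at day 7, Pidd1 1.83, 19.2 and 8.70 CPM, and Ddb2 2.97, 13.05 and 4.99 CPM. In each, replicate 2 was the highest and replicate 1 the lowest, the order of the thymocyte sums of 261, 6042 and 2599 CPM. Ptprv, Apaf1, Xpc and Ercc5 also peaked at day 7 with this order, while Rrm2b, Sesn1 and Rap2b peaked at day 7 without it. The log2 fold changes against steady state were 1.11 ± 0.38 for Trp53inp1 (adjusted p = 0.136) and 1.72 ± 0.64 for Pidd1 (adjusted p = 0.162). For Ddb2 the value was 0.54 ± 0.44 (adjusted p = 0.691). With the thymocyte score as a covariate they were 0.40 for Trp53inp1 and 0.032 for Pidd1. The order rests on few libraries, and the part of thymocyte RNA in these levels was not tested.

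Several targets split by library in a way that went with GC content. The GC-richest stretch of 200 bases was found in the longest GENCODE M21 transcript of each gene. Over 11457 genes with a mean of at least 5 CPM, the difference in log2(CPM + 0.5) between day 1 replicate 1 and the mean of replicates 2 and 3 had a Pearson correlation of -0.63 (Spearman -0.68) with the GC content of that stretch. These are correlations across genes, which are not independent replicates. For day 4 replicates 2 and 3 against replicate 1 the Pearson correlation was -0.58, and for day 7 replicate 2 against replicates 1 and 3 it was -0.32. Each gene's log2 level relative to its mean over all libraries was also fitted against this GC content in each library. Because of this centring the slopes balance out over the libraries, so they only rank libraries against each other. Outside day 1 replicate 1, day 4 replicates 2 and 3 and day 7 replicate 2, this relative level rose slightly, by 0.07 to 0.25 per 10 points. In day 1 replicate 1 the relative level fell by 0.65, in day 4 replicates 2 and 3 by 0.31 each, and in day 7 replicate 2 by 0.17. The column names carry a tag family (k3, kk or neither). Day 1 replicate 1 has kk, and its replicates 2 and 3 have neither. Day 4 replicates 2 and 3 have k3, and replicate 1 has neither. At day 7, replicates 1 and 2 both have k3. PBS day 4 replicate 2 (k3) and PBS day 7 replicate 2 (kk) had rising slopes. The labels do not explain the tags.

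Among the targets, 11 had a stretch of at least 73% GC, a limit chosen after the values were seen: Apaf1, Gdf15, Mdm2, Ei24, Bax, Perp, Rap2b, Phlda3, Sesn1, Slc19a2 and Bbc3. In 9 of these 11, day 1 replicate 1 was more than 1 log2 unit below replicates 2 and 3, and the median difference was -1.95. The exceptions were Mdm2 at -0.25 and Bax at 0.24. Over the other 23 targets the median difference was 0.25, and 1 of them, Ptprv, was more than 1 log2 unit below. Phlda3 was the most extreme, with 35.3 CPM in day 1 replicate 1 against 375 and 368 in replicates 2 and 3, and 283 CPM in day 4 replicate 1 against 56.9 and 63.1. Of the 6 genes called at day 1, Bax alone is among the 11.

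Stretches of 120 coding bases are shown for 2 of the split genes and for Eda2r, whose replicates did not split, with each CpG in capitals. Coordinates are of GRCm38.

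Phlda3, chr1:135766493-135766612, plus strand: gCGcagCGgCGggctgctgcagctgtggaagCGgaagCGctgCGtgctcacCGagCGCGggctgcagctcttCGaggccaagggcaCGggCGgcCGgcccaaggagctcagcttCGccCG
Bbc3, chr7:16312259-16312378, plus strand: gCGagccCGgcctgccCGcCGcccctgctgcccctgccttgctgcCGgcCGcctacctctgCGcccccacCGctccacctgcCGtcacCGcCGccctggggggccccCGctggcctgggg
Eda2r, chrX:97338968-97339087, minus strand: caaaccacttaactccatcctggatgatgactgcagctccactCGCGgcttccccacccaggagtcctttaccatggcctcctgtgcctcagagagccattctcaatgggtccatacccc

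The sequence shown for Phlda3 has 15 CpGs and 74.2% GC, that for Bbc3 has 12 and 82.5%, and that for Eda2r has 2 and 56.7%.

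With the GC slope of each library as a covariate, 9 targets were higher and 2 lower at day 1, with 448 of all genes higher and 275 lower. This added Zmat3, Gdf15 and Tnfrsf10b to the genes that rose and Sesn1 and Rrm2b as genes that fell. With each library's GC trend removed, 9 were higher and 1 lower, with 537 of all genes higher and 269 lower. This added Ak1, Gdf15 and Tnfrsf10b higher and Rrm2b lower. Without either treatment, 335 of all genes were called higher and 134 lower, so the calls also rose over all genes. Both treatments of GC kept the 6 genes called without them, and the log2 fold change of Bax went from 1.47 to 2.11 with the trend removed. In day 1 replicate 1 Bax went from 139 to 299 CPM, and in replicates 2 and 3 it went from 114 and 121 to 92.4 and 102 CPM. Bax was not low in replicate 1 before the trend was removed. At day 4 both called Sesn2 and Aen higher than steady state (adjusted p = 0.00832 and 0.0270 with the covariate). Over all genes, 16 were called higher and 55 lower with the covariate, and 18 and 53 with the trend removed. After the trend was removed Phlda3 still measured 81.1 CPM in day 1 replicate 1 against 290 and 299 in the others. Phlda3, Bbc3, Ei24, Slc19a2 and Perp were not called at any day against steady state with either, so whether they rose cannot be told from these libraries.

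**Figure D4:**
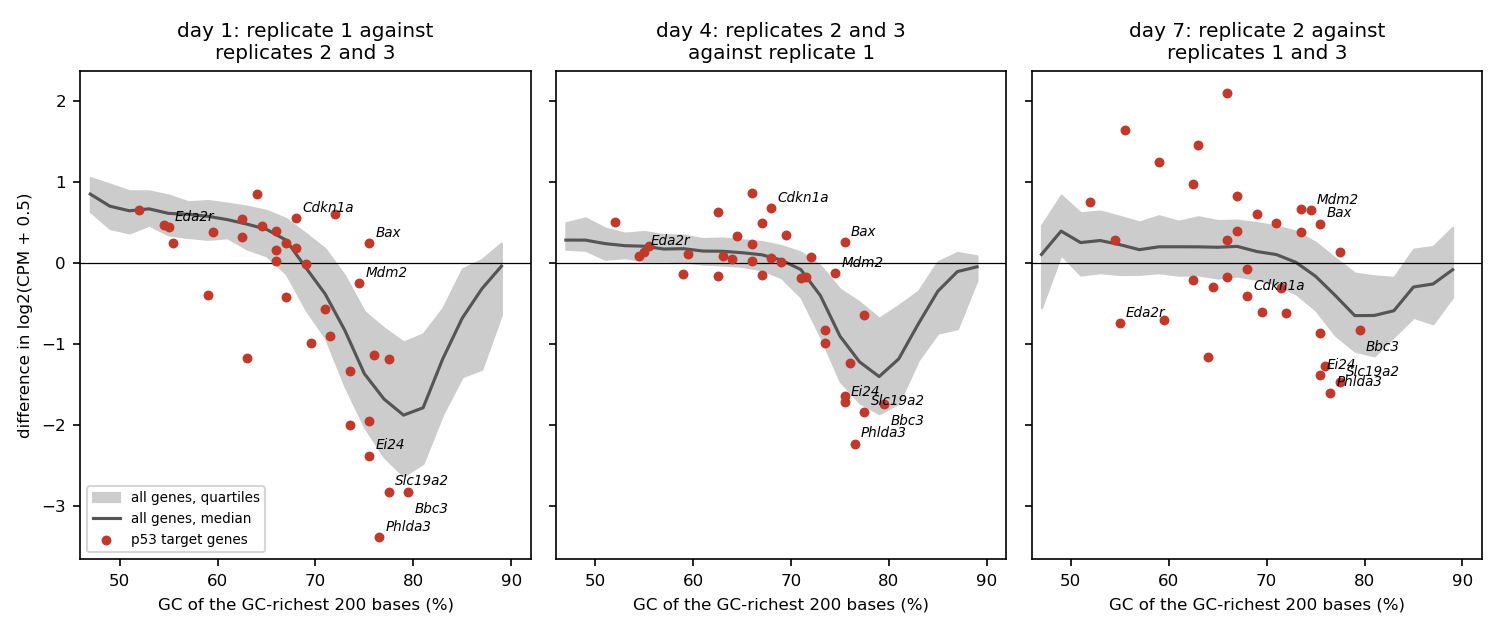
Difference in log2(CPM + 0.5) between libraries of the same day (vertical axis) against the GC content in percent of the GC-richest 200 bases of each transcript (horizontal axis). The grey line and band are the median and quartiles of all genes in bins of 2 points, and red points are the p53 target genes. For day 1 replicate 1 the median falls to -1.88 between 78% and 80% GC, with Phlda3, Slc19a2 and Bbc3 below the median line at -3.38, -2.82 and -2.83, and is -0.042 between 88% and 90%.

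The genes around p53 itself showed no call by edgeR against steady state. Of 17 genes for p53 and its regulators, edgeR called none at any of the 3 days. Over all genes, 2.35%, 0.29% and 0.005% were called at days 1, 4 and 7. At an unadjusted p under 0.05 there were none at day 1, 1 higher at day 4, and 3 higher and 2 lower at day 7. Over all genes, 17.2%, 13% and 13.5% passed at these days. DESeq2 called none at days 1 and 4 and 1 higher at day 7, with 1.91% of all genes called higher and 3.5% lower at day 7. Trp53 measured 85.2 to 111 CPM at steady state, and 177, 100 and 105 CPM at day 1 (log2 fold change 0.41 ± 0.25, adjusted p = 0.388). Chek1, the checkpoint kinase, was the only one called in any comparison, higher at day 7 than at day 1 and day 4. In those comparisons 3.68% and 2.77% of all genes were called higher. Its day 7 levels were 2.40, 18.2 and 8.595 CPM, the order of the thymocyte sums.

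A list of 20 other p53 targets was also chosen with earlier results of these data known, so its counts are no independent check. Of these 20, 4 rose at day 1 and none fell, while 1.68% of all genes were called higher and 0.671% lower. At an unadjusted p under 0.05, 8 were higher and none lower, while 17.2% of all genes passed. DESeq2 called 5 higher and none lower, with 4.58% of all genes called higher and 2.92% lower. Ass1, which encodes argininosuccinate synthase, had the largest change, from 3.53 to 8.78 CPM at steady state to 44.2, 21.7 and 24.7 at day 1 (log2 fold change 2.35 ± 0.52, adjusted p = 0.00133). The others were Tap1, the peptide transporter of antigen presentation, Psrc1 and Dcxr. Dcxr was also higher than steady state at day 4, with 80.1, 84.8 and 78.6 CPM against 18.5 to 32.7 CPM (log2 fold change 1.70 ± 0.40, adjusted p = 0.0164). It was the only gene of either target list called at day 4 by edgeR, with 0.05% of all genes called higher. At day 7 none of the 20 was called against steady state, with 0.005% of all genes called. At an unadjusted p under 0.05 there were 3 higher and 2 lower, while 13.5% of all genes passed. DESeq2 called 2 higher and 1 lower, with 1.91% of all genes called higher and 3.5% lower.

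Of 12 proliferation genes, Birc5 was called lower at day 1, as were 0.671% of all genes. All 12 had negative log2 fold changes with a median of -2.65, against -0.10 over all genes. At day 7, 11 of 12 were called higher than at day 1, as were 3.68% of all genes. In 10 of the 12 every day 1 library lay below steady state, as in 8.56% of all genes. At day 7 the order of replicates was again that of the thymocyte sums for Top2a, with 17.3, 486 and 221 CPM.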

How the data were processed

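Bulk RNA-seq counts were analysed for CD45− thymic cells in 4 steady-state libraries and 3 libraries on each of days 1, 4 and 7 following TBI. The authors trimmed reads with Trimmomatic 0.38, aligned them with STAR 2.7.0e to GRCm38.p5 and counted them per gene with featureCounts 1.6.3, per the submitters' processing notes, and the deposited values are raw counts without normalization. Whether counting used strand is not given in the sources used here. The PBS columns carry no replicate number of the labels, so they were used as a group. No library pair agreed within sampling noise.

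Counts were tested with edgeR 4.0.16 in R 4.3.3 (TMM, filterByExpr() by group with a minimum count of 10, quasi-likelihood F-test), with all 13 libraries in 1 fit and a common dispersion of 0.177. P-values were adjusted over the 19984 genes tested (Benjamini-Hochberg), and genes at 0.05 or less were called, with no fold threshold. An SE is the size of the log2 fold change over the normal quantile that its p-value gives. The targets, their roles and the other lists were chosen with earlier results of these data known. All targets are accounted for, and full statistics are given for those called against steady state. Exons were taken from GENCODE M21. Steps were tested on simulated data. Tables were made with pandas 2.3.3 and numpy 2.4.6 in Python 3.11.15, and plots with matplotlib 3.10.9.

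Alternatives were DESeq2 1.42.0, RLE normalization, no filter, at least 10 counts in every library, only the groups compared, each library left out, the thymocyte score or the tag family of the column names (k3, kk or neither) as a covariate, counts thinned to 15721866 per library, and the replicate number as a block. Those on GC content (slope as a covariate, or a lowess trend of span 0.3 removed) and a fit of only the irradiated libraries were chosen after seeing the data. Depth limits genes at a few CPM, and SDs hold both biological and counting error.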

Additional observations from a re-analysis of the deposited data

Results flagged for a closer look

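At steady state, 3 of the 34 targets had a library far from the others by Dixon's ratio (how far the extreme value lay from its neighbour, divided by the range, past the 95% critical value), where chance would give 1.7. Btg2 had a ratio of 0.952, with 406 CPM in PBS day 1 replicate 2 and 170 to 182 CPM in the other libraries. Gdf15 had a ratio of 0.975, with 5.75 CPM in the same library and 1.95 to 2.04 CPM in the others. Zmat3 had a ratio of 0.848, with 12.8 CPM in PBS day 4 replicate 2 and 9.19 to 9.73 CPM in the others.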

How the results depend on the processing

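The number of p53 targets called depended on the setting, as did the number of all genes called. Brackets give the numbers of all genes called higher and lower. In these settings 18141 to 20874 genes were tested, and 37877 without a filter. At day 1 against steady state, 6 were called (335 and 134). The count was 10 with the tag family as a covariate (745 and 321) and 3 with only the 2 groups compared (166 and 62). It was 11 with the GC slope as a covariate (448 and 275), 10 with the GC trend removed (537 and 269) and 12 with DESeq2 (844 and 537). At day 4 against steady state none was called (10 and 48). The count was 1 with RLE (19 and 54), 2 without a filter (47 and 203) and 2 with only the groups compared (30 and 116). It was 2 with the GC slope (16 and 55), 2 with the GC trend removed (18 and 53) and 7 with DESeq2 (270 and 374). At day 7 against steady state none was called (1 and 0), but 3 with DESeq2 (382 and 699). Between day 4 and day 1 none was called (71 and 214), but 1 with the thymocyte score (89 and 183) and 1 with DESeq2 (380 and 569). Between day 7 and day 1, 5 were called (735 and 890), but 1 with the thymocyte score (35 and 326). The count was 8 with the tag family (747 and 669) and 3 with only the groups compared (268 and 862). With only the irradiated libraries it was 8 (697 and 1350). It was 9 with the GC slope (1507 and 1177), 8 with the GC trend removed (848 and 1104) and 11 with DESeq2 (1280 and 1660). Between day 7 and day 4 none was called (553 and 226), but 1 with RLE (545 and 295) and 2 with the tag family (718 and 136). The count was 1 with only the groups compared (94 and 300) and 1 with the GC slope (1245 and 365). It was 1 with the GC trend removed (614 and 317) and 4 with DESeq2 (1034 and 885). The cause of these changes was not tested. With 1 library left out in turn, the target counts ran from 4 to 9 for day 1, 0 to 2 for day 4 and 0 to 2 for day 7 against steady state. They ran from 0 to 0 for day 4 against day 1, 0 to 9 for day 7 against day 1 and 0 to 4 for day 7 against day 4. The day 4 count of 2 arose without PBS day 4 replicate 2, and the day 7 count of 2 and the count of 4 without day 7 replicate 1. Over all genes, those called higher ran from 198 to 552, 0 to 23 and 0 to 568 against steady state. In the same order, those called lower ran from 36 to 245, 19 to 74 and 0 to 203. Between days, those called higher ran from 4 to 91, 167 to 1315 and 15 to 1272. Those called lower ran from 82 to 196, 305 to 638 and 0 to 235.

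The calls of Cdkn1a, Bax and Aen at day 1 were kept in all 17 alternatives. Of 827 values of single genes over 48 results, 702 kept their direction and side of the threshold, 45 lost and 78 gained the call, and 2 changed sign. These were Ccng1 at day 7 against steady state without day 7 replicate 1 (-0.0070, with a range of -0.0070 to 0.51 over the libraries left out) and Ddb2 at day 1 with the thymocyte score (0.035), neither of which was called.

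Deviations of the irradiated libraries from their group means were correlated between days. The correlations ran from -0.67 to 0.20 for same-numbered libraries and from -0.47 to 0.58 for the others. The split by GC content enters these deviations, so they cannot show whether the replicate numbers pair libraries. With the replicate block, 2 targets were called lower at day 7 than at day 1 and none in the other 2 comparisons of days. In the same libraries without it there were 8 and none. Over all genes at day 7 against day 1, the block gave 103 higher and 537 lower, against 697 and 1350 without it. The steady-state columns carry no replicate number, so no paired analysis was possible there.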
